A study of Homo sapiens with 6 samples.

Results

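The genes described here are 9 of the 57820 annotated genes in the table: stress sensors of the endoplasmic reticulum (ER), transcription factors of the unfolded protein response (UPR), and the proteases that release those factors from membranes. They are ERN1, ATF6, ATF6B, XBP1, CREB3, CREB3L1, CREB3L2, MBTPS1 and MBTPS2. They were picked by gene symbol, with earlier results of these data known. Each symbol stood on 1 row, and all 9 passed the minimum level for testing, a mean normalised count of 10 over the libraries. The libraries were made from polyadenylated RNA of U2OS, a long-established line of human osteosarcoma cells, treated for 4 h with the solvent DMSO at 0.05% or with 5 µM NMS-873 dissolved in DMSO, with 3 libraries per treatment. NMS-873 inhibits VCP (p97) allosterically. VCP is the ATPase that extracts ubiquitylated proteins from membranes, among them misfolded proteins of the ER. The comparison asked how transcripts responded when VCP was inhibited. The labels do not name the cultures behind the libraries. The p-values therefore measure only variation among these libraries, which may be technical. In the test used, each gene's spread comes mostly from genes of similar level. Very small p-values thus do not rest on the 3 libraries per treatment of that gene alone.

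The UPR senses unfolded protein in the ER lumen through sensors that span the ER membrane. IRE1 alpha, encoded by ERN1, is a kinase and endoribonuclease that cuts a short intron out of the XBP1 mRNA, so that the mRNA is read in another frame and yields the active factor XBP1s. ATF6 and its relative ATF6B are transcription factors held in the ER membrane. Under stress they travel to the Golgi, where the site-1 protease (MBTPS1) and then the site-2 protease (MBTPS2) cut them and free the part that enters the nucleus. CREB3, CREB3L1 and CREB3L2 are membrane-held factors of the same design, known for genes of secretion and, for CREB3L1, of collagen in bone-forming cells. PERK, encoded by EIF2AK3, is the remaining sensor and acts through translation and ATF4.

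The 6 libraries held between 21132311 and 22488952 reads in genes, and 401 to 8788 reads in any one of the 9 genes. NMS-873 replicate 1 stood somewhat apart from the other NMS-873 libraries, with a chi-square per degree of freedom of 6.84 and 7.27 against them, where those differed from each other by 1.72, and DMSO replicate 3 stood apart from the other DMSO libraries (3.28 and 3.33, against 1.47). Of 8 osteoblast markers 3 (ALPL, COL1A1 and SPP1) reached an FPKM of 1 in every library, IBSP had no read in any, and SP7, BGLAP and COL1A2 stayed at or under 0.110 FPKM. RUNX2 lay between 0.607 and 1.33 FPKM. The summed FPKM of the 8 was 230.0 to 244 with DMSO and 167 to 190 with NMS-873, most of it COL1A1, and the part of this in the results below was not tested. The summed FPKM of the 4 blood markers was at most 0.0996 in any library, with 3 of them at 0 in all and PTPRC above 0 in each, and that of the 2 matched endothelial markers at most 0.271. Of the epithelial markers EPCAM (1.18 to 1.61 FPKM) and of the neural markers SNAP25 (2.61 to 3.31 FPKM) reached an FPKM of 1 in every library.

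The sequences shown are those of the 2 genes that rose most, XBP1 and CREB3L2. Whether the motifs in them had a part in the rises was not tested. Each line gives the 250 bases before an annotated transcription start, from RefSeq on GRCh38.p14, 5′ to 3′ in the direction of the gene. Capitals mark the matched motif: in XBP1 the ER stress response element (ERSE), which is CCAAT, 9 bases of any kind and CCACG, to which ATF6 is known to bind together with NF-Y, and in CREB3L2 the cyclic AMP response element (CRE), TGACGTCA, a site of CREB and ATF factors. Both genes lie on the minus strand, XBP1 at chr22:28800570-28800819 and CREB3L2 at chr7:138002087-138002336.
XBP1: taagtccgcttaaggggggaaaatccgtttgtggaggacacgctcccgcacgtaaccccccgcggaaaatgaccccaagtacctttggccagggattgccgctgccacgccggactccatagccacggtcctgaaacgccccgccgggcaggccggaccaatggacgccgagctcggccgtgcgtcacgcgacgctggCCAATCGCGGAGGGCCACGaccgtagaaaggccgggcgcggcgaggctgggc
CREB3L2: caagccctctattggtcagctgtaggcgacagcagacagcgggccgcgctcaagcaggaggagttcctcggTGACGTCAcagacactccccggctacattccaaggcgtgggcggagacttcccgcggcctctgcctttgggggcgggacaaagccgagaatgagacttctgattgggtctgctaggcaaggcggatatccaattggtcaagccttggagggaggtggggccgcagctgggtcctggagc

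RefSeq windows were found for all 9 genes, with 2 starts each for XBP1 and CREB3L2, of which the upstream ones are shown. In XBP1 the ERSE ended 34 bases before the start, and in CREB3L2 the CRE ended 172 bases before it. These were the only matches in the 11 windows of the 9 genes. Also searched, on both strands, were the second ER stress element (ERSE-II, which is ATTGG, 1 base of any kind and CCACG, and so ends like the ERSE), the UPR element TGACGTGG (UPRE, which shares TGACGT with the CRE) and the composite element TGATGNAA of ATF4 and CHOP. Of all 35116 promoter windows of this length, 0.074% held the ERSE, 0.0513% ERSE-II, 0.612% the UPRE, 1.65% the CRE and 3.14% the composite element. Of 3 other genes searched in the same way, HSPA5, the gene of the ER chaperone BiP, held 1 ERSE, HERPUD1, an ER degradation gene, held ERSE-II and the composite element, and EIF2AK3 held none of these motifs. A match describes letters in this window and does not show that a factor was bound, and a window without a match says nothing about the factor.

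The substrate of IRE1 is shown as well, because the counts sum both forms of the XBP1 mRNA and cannot tell them apart. In 4 of 7 XBP1 transcripts of GENCODE 29 a search found 1 stretch of 26 bases (capitals) between the flanking bases at which IRE1 is known to cut, at bases 567 to 592 of the longest protein-coding transcript (1850 bases).
XBP1 intron: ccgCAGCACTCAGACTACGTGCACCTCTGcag

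With NMS-873, 3 of the 9 genes rose (XBP1, CREB3L2 and ERN1), 1 fell (CREB3L1) and 5 did not pass the test, the 2 ATF6 genes and both proteases among them. The test was limma on log2(normalised count + 1) over 14889 genes with Benjamini-Hochberg adjustment and a threshold of 0.05. In that fit 14.9% of all genes tested were called higher, 33% lower and 47.9% either way, so the share of the 9 genes that was called lay near the background. By size, XBP1 and CREB3L2 ranked 63 and 148 by log2 fold change among the 14889, and 1.64% of all genes were called at 2-fold higher or more. The deposited values are scaled to spike-in RNA. Their median log2 fold change over the tested genes was -0.10. It was nearly the same, at -0.099, after scaling to equal totals, which does not use the spike-in. What set this offset was not tested. With libraries scaled to the genes themselves (gene-based scaling) the median was at 0.00. The calls over all genes were then 25.3% higher, 20.9% lower and 46.1% either way. Small changes are therefore given on the deposited and the gene-based scale.

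**Figure D1:**
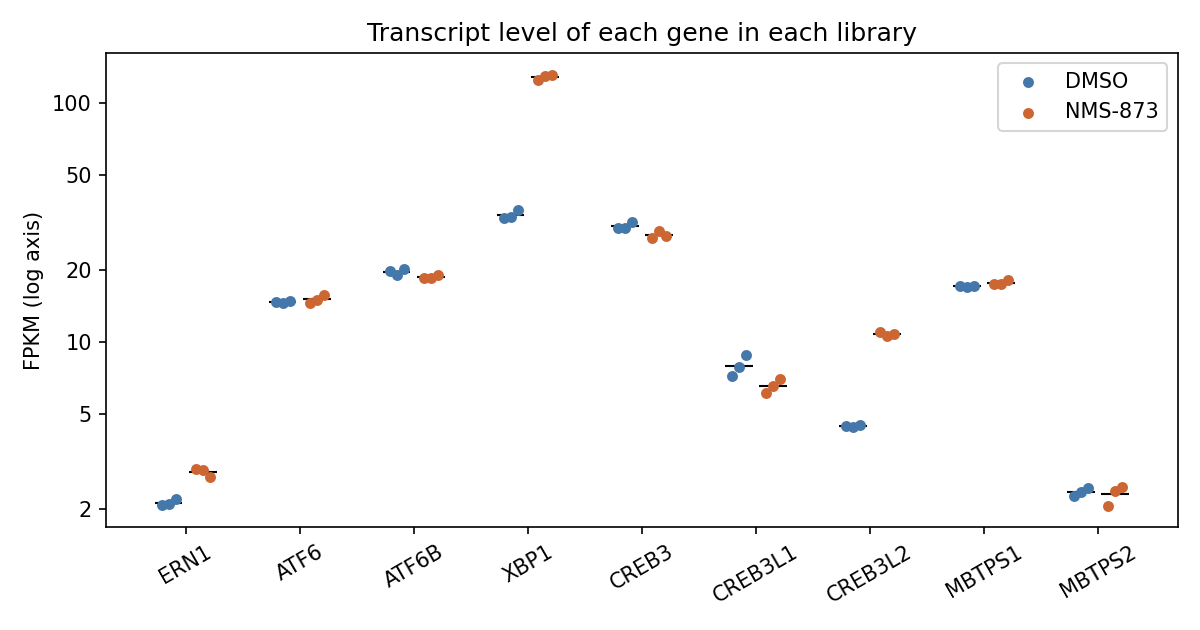
FPKM (reads per kilobase of exon, scaled between libraries; log axis) of the 9 genes in each library, DMSO in blue and NMS-873 in orange, with a black line at the mean of 3. The XBP1 points move from between 33.0 and 35.6 to between 125 and 132, and CREB3L2 and ERN1 are also higher with NMS-873. The ATF6, ATF6B and MBTPS2 points overlap between treatments.

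XBP1 (ENSG00000100219.12; chromosome 22, 29190543 to 29196585, hg19) was the most abundant of the 9 per length in both treatments. Its level was 33.0, 33.4 and 35.6 FPKM in DMSO replicates 1 to 3 and 125, 130.0 and 132 FPKM in NMS-873 replicates 1 to 3. The groups lay far apart, and the spread within each was small (SD 1.39 and 3.47 FPKM). The log2 fold change was 1.92 (SE 0.0538, 95% interval 1.82 to 2.03, adjusted p = 1.77e-98 in limma). The log2 fold change lay between 1.90 and 2.04 under the 16 other settings tried. Without the variance trend the adjusted p was 1.03e-05 in limma.

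ERN1 (ENSG00000178607.11; chromosome 17, 62116502 to 62208179), whose product cuts the XBP1 mRNA, was the least abundant with DMSO, and its rise was smaller. It stood at 2.07, 2.10 and 2.19 FPKM with DMSO and at 2.94, 2.91 and 2.73 FPKM with NMS-873. All NMS-873 libraries lay above all DMSO libraries, by a 1.35-fold difference of the means (log2 fold change 0.43, 95% interval 0.30 to 0.56, adjusted p = 9.92e-09 in limma). Without the variance trend the adjusted p was 0.0022 in limma. Its paralogue ERN2, a gut epithelial form, had 1 read in the 6 libraries together and was not tested.

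ATF6 (ENSG00000118217.5; chromosome 1, 161736084 to 161933860) did not pass the test on the deposited scale. Its level was 14.8, 14.5 and 14.8 FPKM with DMSO and 14.5, 15.03 and 15.7 FPKM with NMS-873, and the groups overlapped. The log2 fold change was 0.04 with a 95% interval of -0.07 to 0.14 (adjusted p = 0.602 in limma), an interval that holds changes of up to 1.10-fold higher and leaves out any of the size seen in XBP1. Relative to the other genes it was slightly higher: with gene-based scaling the log2 fold change was 0.14 (adjusted p = 0.00146 in limma).

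ATF6B (ENSG00000213676.6; chromosome 6, 32065953 to 32096030), a weaker activator than ATF6 that can oppose it, was at 19.7, 19.0 and 20.2 FPKM with DMSO and 18.5, 18.5 and 19.1 FPKM with NMS-873. The lowest DMSO library lay just under the highest NMS-873 library. The log2 fold change was -0.07 (95% interval -0.18 to 0.04, adjusted p = 0.304 in limma), and it was 0.03 with gene-based scaling, so not even its sign held. The annotated span of ATF6B overlaps that of TNXB on the same strand by 17159 bases, but TNXB had a mean normalised count of 23.3 against 1535 for ATF6B.

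Of the 3 genes of the CREB3 family 1 rose, 1 fell and 1 did not pass. CREB3L2 (ENSG00000182158.10; chromosome 7, 137559725 to 137686813), also called BBF2H7 and known for the export of matrix proteins in cartilage, was at 4.42, 4.42 and 4.48 FPKM with DMSO and 11.0, 10.6 and 10.8 FPKM with NMS-873. These were among the tightest replicates of the 9 genes, with an SD of 0.787% of the mean with DMSO and 1.91% with NMS-873. The difference was 2.43-fold (log2 fold change 1.28, 95% interval 1.17 to 1.39, adjusted p = 9.30e-60 in limma). Without the variance trend the adjusted p was 2.65e-05 in limma.

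CREB3L1 (ENSG00000157613.6; chromosome 11, 46299212 to 46342972), also called OASIS and known as an activator of COL1A1 in osteoblasts, was lower with NMS-873. It stood at 7.20, 7.83 and 8.84 FPKM with DMSO and 6.13, 6.52 and 7.01 FPKM with NMS-873. The groups did not overlap, but the lowest DMSO and the highest NMS-873 library were close, and the SD was 10.4% of the mean with DMSO. The mean was 1.21-fold lower (log2 fold change -0.28, 95% interval -0.41 to -0.14, adjusted p = 2.39e-04 in limma). The call was lost without the variance trend (adjusted p = 0.0588 in limma). On gene-based scaling it was kept, at -0.17 (adjusted p = 0.0206 in limma).

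CREB3 (ENSG00000107175.6; chromosome 9, 35732332 to 35737001), also called Luman, a factor known for Golgi stress, was second in abundance at 30.02, 29.97 and 31.8 FPKM with DMSO and 27.2, 29.1 and 27.7 FPKM with NMS-873. Every NMS-873 library lay below every DMSO library, yet the gene did not pass (log2 fold change -0.13, 95% interval -0.24 to -0.01, adjusted p = 0.0632 in limma). It passed after scaling to equal totals (-0.12, adjusted p = 0.0182 in limma) and on log2(FPKM + 0.1) (-0.13, adjusted p = 0.0496 in limma). With gene-based scaling the log2 fold change was -0.02 (adjusted p = 0.707 in limma). Groups that do not overlap were common in these data: 6 of the 9 genes and 53.6% of all genes tested had them. The ends of CREB3 overlap GBA2 by 139 bases and TLN1 by 61 bases on the other strand, and the sources used here do not say whether counting was by strand. Of the other relatives, CREB3L4 was at a log2 fold change of 0.12 (adjusted p = 0.446 in limma), and CREB3L3, a liver and gut factor, had no read, and a count of 0 allows up to 3 reads in a library.

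Neither protease passed on the deposited scale. MBTPS1 (ENSG00000140943.12; chromosome 16, 84087368 to 84150511) was at 17.2, 17.0 and 17.1 FPKM with DMSO and 17.4, 17.5 and 18.1 FPKM with NMS-873. The NMS-873 libraries all lay above the DMSO libraries by a small margin (log2 fold change 0.05, 95% interval -0.06 to 0.15, adjusted p = 0.489 in limma), and with gene-based scaling the gene passed at 0.15 (adjusted p = 5.57e-04 in limma). MBTPS2 (ENSG00000012174.7; chromosome X, 21857754 to 21903542) was at 2.27, 2.35 and 2.45 FPKM with DMSO and 2.06, 2.36 and 2.48 FPKM with NMS-873. Its groups overlapped fully, with NMS-873 replicate 1 the lowest of the 6 libraries. The log2 fold change was -0.04 (95% interval -0.19 to 0.10, adjusted p = 0.675 in limma), 0.04 without that library and 0.06 with gene-based scaling. YY2, which lies within the span of MBTPS2 on the same strand, had a mean normalised count of 11.6 against 454 for MBTPS2.

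**Figure D2:**
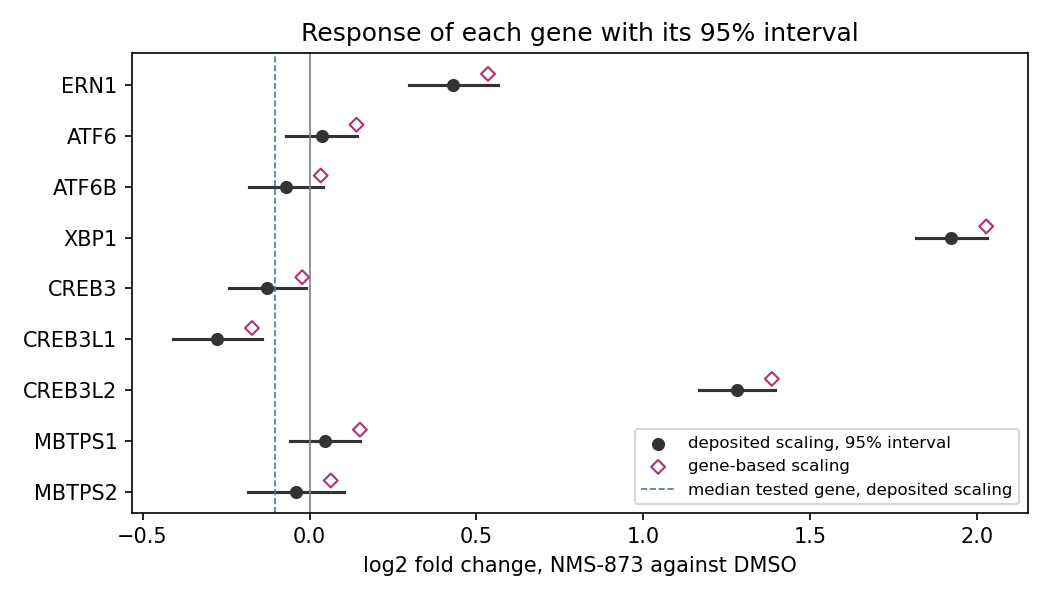
log2 fold change of each gene, NMS-873 against DMSO: black points with 95% intervals from limma on the deposited scale, open diamonds with gene-based scaling, and a dashed line at the median tested gene (-0.10). XBP1 (1.92), CREB3L2 (1.28) and ERN1 (0.43) stand to the right of 0 on both scales and CREB3L1 (-0.28) to the left, while the other 5 intervals lie close to 0 and shift by about the distance of the dashed line.

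In order of FPKM the genes ran XBP1, CREB3, ATF6B, MBTPS1, ATF6, CREB3L1, CREB3L2, MBTPS2 and ERN1 with DMSO, and no neighbours in that order overlapped between libraries. With NMS-873 there were exchanges at 2 places: CREB3L2 (10.8 ± 0.206 FPKM; SD, n = 3) stood above CREB3L1 (6.56 ± 0.438), and ERN1 (2.86 ± 0.115) above MBTPS2 (2.30 ± 0.215). The library values of each such pair did not overlap.

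Ratios between genes within a library do not depend on how libraries are scaled, and 7 pairs were compared. Per length, XBP1 was 2.24, 2.30 and 2.40 times ATF6 with DMSO, and 8.62, 8.65 and 8.37 times with NMS-873. ERN1 fell behind the PERK gene EIF2AK3, a kinase with a related sensing domain, with a FPKM ratio of 0.382, 0.454 and 0.446 with DMSO and 0.104, 0.103 and 0.0941 with NMS-873. EIF2AK3 itself rose 5.72-fold (adjusted p = 1.14e-117 in limma), from 4.99 to 28.5 FPKM, beside 1.35-fold for ERN1. The balance of CREB3L1 to CREB3L2 turned over, from 1.63, 1.77 and 1.97 with DMSO to 0.558, 0.616 and 0.649 with NMS-873.

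The ratio of CREB3L2 to CREB3 went from 0.145 ± 0.00363 to 0.386 ± 0.0207 and that of ERN1 to ATF6 from 0.144 ± 0.00390 to 0.190 ± 0.0149 (FPKM ratio, SD, n = 3). ATF6 to ATF6B moved little, from 0.748 ± 0.0149 to 0.806 ± 0.0186, and still without overlap. MBTPS1 to MBTPS2 overlapped, at 7.26 ± 0.282 and 7.73 ± 0.638. In 6 of the 7 pairs the groups did not overlap, which gave an exact permutation p of 0.1 (two-sided), the smallest that 3 against 3 libraries can give, and 0.117 after adjustment over the 7 pairs. For the proteases it was 0.4. No pair can pass a threshold of 0.05 in this design.

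**Figure D3:**
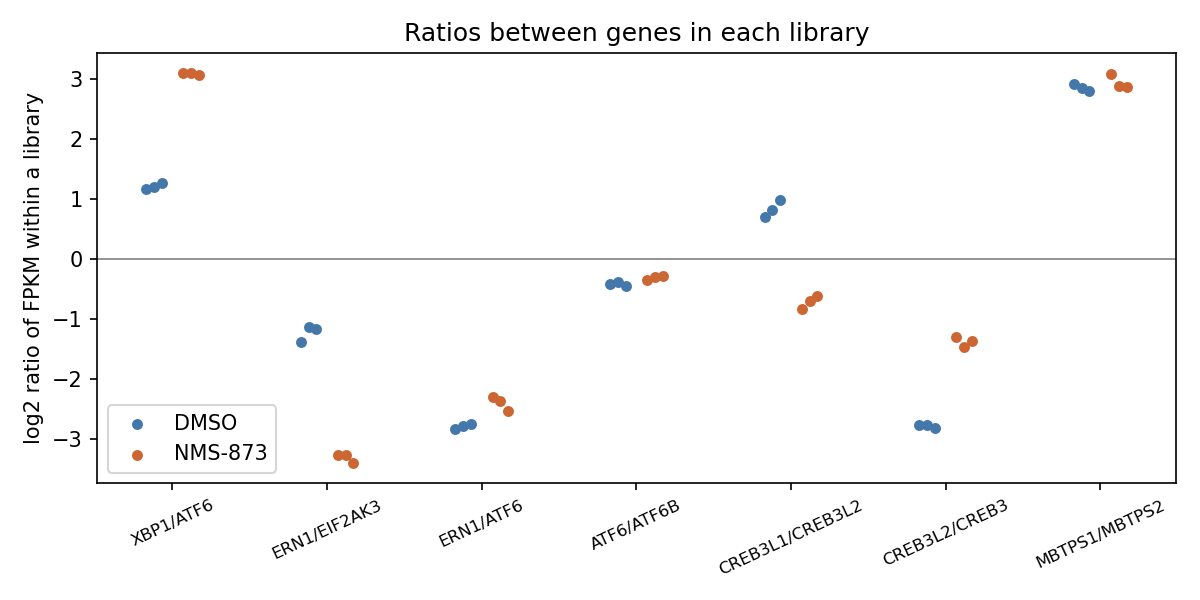
log2 ratio of the FPKM of 2 genes within each library (blue DMSO, orange NMS-873; 0 means equal levels per length). CREB3L1/CREB3L2 crosses 0 between treatments, XBP1/ATF6 is higher and ERN1/EIF2AK3 lower with NMS-873, and MBTPS1/MBTPS2 is the pair whose groups overlap.

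The genes whose profile over the 6 libraries was most like that of XBP1, by the Euclidean distance between log2(normalised count + 1) values centred on the DMSO mean, were LPIN1 (distance 0.162), JHDM1D (0.171) and RAB39B (0.180). Their log2 fold changes were 2.00, 1.87 and 1.94. For ERN1 they were THAP1 (distance 0.0440), MFSD6 (0.0654) and AMMECR1L (0.0751), at log2 fold changes of 0.41, 0.40 and 0.45. With 2 treatments such a profile is mostly the size of the response, and these distances are a description.

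Genes that the UPR factors are known to act on were higher. Of 29 tested ER genes known as targets of XBP1s or ATF6, 27 rose and 1 fell, where 14.9% of all genes were called higher and 33% lower. With gene-based scaling 28 rose and 0 fell, against 25.3% and 20.9% of all genes. The median log2 fold change was 0.84 (0.94 with gene-based scaling) beside -0.10 over all genes. HERPUD1, which organises the ER degradation complex, rose 17.6-fold, DNAJB9, a BiP co-chaperone that also restrains IRE1 alpha, 13.0-fold, SDF2L1, a partner of ER chaperones, 5.30-fold, and DNAJC3, a BiP co-chaperone, 4.32-fold. The 1 gene called lower was KDELR3, at -0.18 (named after its value was seen), a call that was lost without DMSO replicate 3 and with gene-based scaling. SEC61B, a translocon subunit, was at 0.06 and did not pass, though it did with gene-based scaling (0.17, adjusted p = 0.00101 in limma), and DERL3 had no read. The 6 lists used here hold 82 distinct genes, 13 of them in more than 1 list, and were chosen with earlier results of these data known.

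The partners of IRE1 alpha were called in both directions. Of 19 tested, 5 rose and 5 fell, around a median of -0.03 (log2 fold change), beside 14.9% higher and 33% lower calls over all genes, so the share called was near the background. By adjusted p the rises were led by DNAJB9. Next came PDIA6, a disulfide isomerase that binds IRE1 alpha (1.43-fold), UFM1, a ubiquitin-like modifier (1.37-fold), and SEC63, a translocation factor (1.29-fold). DNAJB9, PDIA6 and SEC61A1, which also rose, stand among the XBP1 and ATF6 targets above as well. RTCB, the ligase that joins the cut XBP1 mRNA, was at a log2 fold change of -0.07 and did not pass. Its partners DDX1 and FAM98B were called at -0.13 each. With gene-based scaling both were at -0.03 and did not pass (adjusted p = 0.557 and 0.627 in limma). TRAF2, MAP3K5 and BAK1, known for the signalling of IRE1 alpha to JNK and cell death, were at -0.24, -0.35 and -0.32. With gene-based scaling MAP3K5 did not pass (-0.24, adjusted p = 0.0902 in limma), while TRAF2 and BAK1 stayed lower. BAX, TMBIM6 and PTPN1 of the same list were at -0.03, 0.06 and -0.03 and did not pass. TMBIM6 was called higher with gene-based scaling (0.16, adjusted p = 2.41e-04 in limma). Like RTCB, DDX1 and FAM98B, these genes were chosen for naming with their values known. The 5 lower calls were 2 with gene-based scaling, 3 when DMSO replicate 3 or NMS-873 replicate 1 was left out, 2 when NMS-873 replicate 2 was and 7 when NMS-873 replicate 3 was.

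Transcripts reported as cut by IRE1 itself (regulated IRE1-dependent decay, RIDD) were mostly lower. Of 10 tested, 6 fell and 1 rose, and the median was -0.32 (log2 fold change), where 33% of all genes were called lower. With gene-based scaling 6 also fell, against 20.9% of all genes. PMP22, a myelin membrane protein, fell 1.76-fold, CD59, a complement inhibitor on the cell surface, 1.62-fold, and SCARA3, a scavenger receptor, 1.30-fold. BLOC1S1, a transcript widely used as a reporter of this decay, averaged 153 normalised counts without and 114 with the inhibitor (a log2 fold change of -0.41, adjusted p = 0.00113 in limma; named after its value was seen). PER1, a clock gene, rose 1.63-fold. Cutting by IRE1 and lower transcription cannot be told apart from mRNA levels.

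Of 15 genes that act on ATF6 before it is cut, 11 rose and 1 fell, at a median of 0.34 (log2 fold change), where 14.9% of all genes were called higher and 33% lower. With gene-based scaling 13 rose and 0 fell, against 25.3% and 20.9% of all genes. HSPA5, the chaperone BiP, which holds ATF6 in the ER, rose 6.78-fold, SEL1L, of the complex that degrades ATF6, 2.65-fold, SEC24D, a coat subunit of vesicles leaving the ER, 2.40-fold, and SEC23B, its partner in the coat, 1.503-fold. HSPA5, SEL1L and SEC24D, and the rising genes CALR and WFS1, also stand among the XBP1 and ATF6 targets above. The counts of these lists are therefore not separate. TXNDC12, a redox partner of ATF6, was the 1 lower call, at -0.15 (named after its value was seen). That call was lost with gene-based scaling and whenever replicate 1 or 3 of DMSO or replicate 1 or 2 of NMS-873 was left out. The site-1 protease also cuts the sterol factors, and of these SREBF2 rose 1.45-fold (adjusted p = 1.54e-18 in limma), while SREBF1 (0.01) and their escort SCAP (0.00) did not pass. With gene-based scaling SCAP was called higher, at 0.10 (adjusted p = 0.0290 in limma). ATF4, the factor downstream of PERK, rose 1.91-fold.

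Of 12 tested genes known as targets of the CREB3 family, 9 rose and 2 fell, at a median of 0.43 (log2 fold change), where 14.9% of all genes were called higher and 33% lower. With gene-based scaling 10 rose and 1 fell, at a median of 0.53, against 25.3% and 20.9% of all genes. HERPUD1, CRELD2 (an ER stress-induced secreted protein, 2.80-fold), SEC24D and SEC23B led the rises, and all 4 stand in another list as well. ARF4, a Golgi GTPase known as a target of CREB3, was at 0.23 (adjusted p = 1.41e-04 in limma). COL1A1, the collagen chain known as a target of CREB3L1, was called lower at -0.43, from 48278 to 35845 normalised counts. ARF4 and COL1A1 were chosen for naming with their values known. The 2 lower calls, COL1A1 and KDELR3, were 1 without DMSO replicate 3. They were also 1 with gene-based scaling, where KDELR3 did not pass (-0.07, adjusted p = 0.180 in limma).

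**Figure D4:**
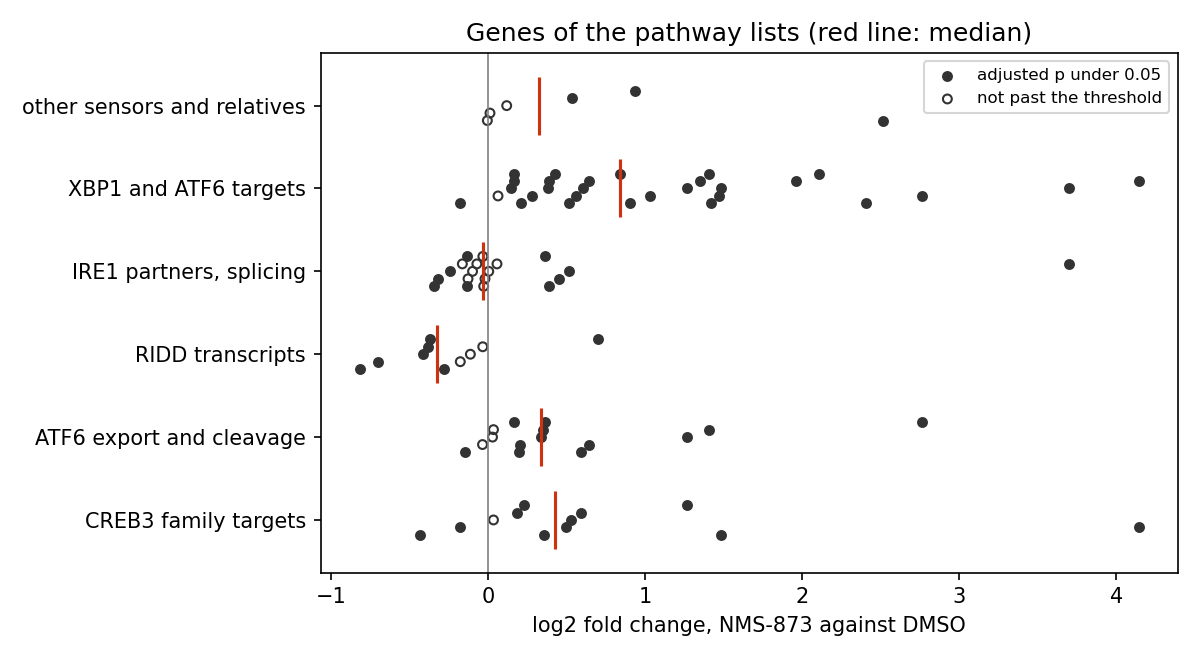
log2 fold change, NMS-873 against DMSO, of every tested gene in the 6 lists (filled points passed an adjusted p of 0.05 in limma, open points did not; red line, median of the list; points are spread vertically for sight only). The XBP1 and ATF6 targets lie almost entirely right of 0 with a median of 0.84, the IRE1 partners sit around 0, and the RIDD transcripts lie mostly left of 0 with a median of -0.32.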

How the data were processed

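Gene-level values of 6 U2OS libraries (3 DMSO, 3 NMS-873, grouped by title) were taken from the 1 deposited table. Its sample columns hold FPKM as deposited: over the spike-in (ERCC) rows the values are proportional to reads per listed transcript length. The table also gives, per the file headers, a mean normalised count (a signal in reads after scaling) and the authors' log2 fold change and adjusted p-value, which are not used as results here. Build hg19, featureCounts 1.5.1 and DESeq2 1.16.1 are named, per the submitters' processing notes; the aligner and strand setting are not given in the sources used here.

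The design assumed normalised counts and the columns hold FPKM, so each gene's FPKM values were rescaled so that their mean became the mean normalised count given in the table. Of the rebuilt values, 100% came within 0.001 of whole reads, and the size factors implied by the deposited values match median-of-ratios factors computed from ERCC rows alone. The 14889 of 57820 genes whose mean normalised count reached 10 entered a two-sided limma test (version 3.58.1, R 4.3.3). It used log2(normalised count + 1) values, an intensity trend and Benjamini-Hochberg adjustment at 0.05. The prior variance had 250.84 degrees of freedom, so each gene's spread comes mostly from genes of similar level. Log2 fold changes are on this scale, while folds written as N-fold are ratios of mean normalised counts. Intervals cover 95%. On simulated data with 14889 genes, 74% of genes changed 1.5-fold, 90% at 2-fold and 98% at 4-fold were recovered, and 9 of 14689 unchanged genes were called. Only 50 genes were changed at each fold there, whereas 47.9% of genes were called in the real data. These figures are therefore not the recovery or false-call rates of the real comparison.

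Ratios were tested by exact permutation. Of the 25 cell type markers PECAM1 had no matching row. Genes named by rule are the 9, the list of other sensors and relatives, and up to 4 genes with the lowest adjusted p in each other list. The rule also takes the 3 genes most like XBP1 and ERN1 among those with a mean of at least 50. Some further genes were named with their values known. The 9 genes and the lists were chosen with earlier results of these data known. The 16 alternatives changed the scaling, pseudocount, count minimum, scale, test, variance trend and block, or left out a library.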

Additional observations from a re-analysis of the deposited data

How the results depend on the processing

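XBP1, CREB3L2 and ERN1 kept their direction and call under all 16 alternatives. Scaling decides the small changes. With gene-based factors 3760 genes were called higher and 3108 lower over all genes, 5 of the 9 higher, with ATF6 at 0.14, MBTPS1 at 0.15, ATF6B at 0.0336 and MBTPS2 at 0.0636 (log2). With TMM factors the counts were 3920, 2952 and 5, and the values 0.15, 0.16, 0.0427 and 0.0728, in the same order. SCAP turned to 0.10 with gene-based and 0.11 with TMM factors and was called higher with both (adjusted p = 0.0290 and 0.0179 in limma). With either scaling the lower calls were 0 for the XBP1 and ATF6 targets, 2 for the IRE1 partners, 0 for the ATF6 regulators and 1 for the CREB3 targets, and without the variance trend 0, 3, 0 and 1. Without that trend 0 of the 9 were lower, as CREB3L1 no longer passed (-0.28, adjusted p = 0.0588 in limma). Among the 9, 2 were called lower with equal totals (CREB3 -0.12), on log2(FPKM + 0.1) (CREB3 -0.13) and with the replicate block (CREB3 -0.13, adjusted p = 0.0374 in limma). Lower IRE1 partners numbered 3 on log2(FPKM + 0.1) and 3 without a count minimum. The causes were not tested.

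The labels do not say whether the replicate numbers pair the libraries. Same-number deviations correlated at 0.0725, -0.0158 and 0.125, and those of unlike numbers at -0.153 to 0.0959. Not every library correlated best with its own number. Correlations this weak cannot decide whether the libraries were paired. With the number as a block 2352 genes were higher and 5255 lower, against 2217 and 4910 without it. Leaving out 1 library at a time gave MBTPS2 values of -0.0955 to 0.0366, SCAP -0.0341 to 0.0158 and SREBF1 -0.0483 to 0.0856, none of them past the threshold. Lower calls ranged from 0 to 1 for the XBP1 and ATF6 targets, 2 to 7 for the IRE1 partners, 0 to 1 for the ATF6 regulators and 1 to 2 for the CREB3 targets. Of 448 values of the 28 other genes named by rule, 441 kept side and direction under the alternatives. The other 7 reversed, all in SCAP and SREBF1. Genes named outside the rule are not in this count. Among them the calls of KDELR3, TXNDC12, MAP3K5, DDX1, FAM98B, SEC61B and TMBIM6 changed with gene-based scaling. Each of the 9 genes had at least 401 reads per library. The SE of their log2 fold changes ran from 0.0535 (MBTPS1) to 0.0735 (MBTPS2), and whether depth limited the small changes was not tested. ERN2 and CREB3L3 were under the level at which a change could be seen.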
